A study of Mus musculus with 9 samples.

Results

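The genes described here are 10 members of the AP-1 and immediate early group, chosen by gene symbol from a table of 24819 genes: Fos, Fosb, Fosl1, Fosl2, Jun, Junb, Jund, Maff, Ier2 and Ier3. All 10 had a row. They were measured in E14 mouse embryonic stem cells, an established line, grown on gelatin in 3 media. EPSCM is expanded potential stem cell medium, 2iLIF is N2B27 base with the 2i inhibitor pair against MEK and GSK3 plus leukemia inhibitory factor (LIF), and ES is serum-containing medium with LIF. Each medium had 3 libraries of polyadenylated RNA, and no group carried a genetic change or another treatment. All cells are of 1 line, and the labels do not say whether replicates were grown apart, so the p-values cover only library-to-library spread, possibly technical.

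AP-1 is a dimeric transcription factor of the basic leucine zipper class. FOS proteins cannot pair with each other and bind DNA as partners of JUN proteins, whereas JUN proteins can also pair among themselves. Many of these genes are immediate early genes: serum, growth factors and stress raise their transcripts within minutes, without new protein synthesis, through ERK acting on ternary complex factors and SRF at the Fos promoter and through JNK and p38 acting on JUN and ATF2. The transcripts are short-lived, so steady cultures usually hold little of them. The labels name EPSCM without its components. The published mouse recipe of that name contains LIF and inhibitors of MEK, GSK3, JNK, p38, SRC kinases and tankyrase, which makes the level of JNK and p38 target genes a natural question for this comparison.

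The values are FPKM, fragments scaled to transcript length and library size, so levels can be compared between genes. Differences are on the log2(FPKM + 1) scale ± standard error; the added 1 makes changes at low levels look smaller. Ratios are of mean FPKM. The call needed both an adjusted p from limma under 0.05 and a log2 difference of 1 or more in either direction. Tested were the 12330 genes that reached 1 FPKM in 3 or more libraries. Of the 10 members, 8 passed this filter. Fosb and Fosl1 did not, and Fosl2 passed only through its 3 ES libraries, so it had to be higher there to be tested. Means are given ± SD with n = 3 libraries. Library values are given in the order of replicates 1, 2 and 3.

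Stem cell markers were abundant in every medium: Pou5f1 averaged 627 FPKM in EPSCM, 1064 in 2iLIF and 1352 in ES, and Nanog 295 in EPSCM, 432 in 2iLIF and 326 in ES. Of 6 fibroblast markers, 3 stayed under 1 FPKM in all libraries, and the summed level of the list was 9.95 to 10.4 FPKM in EPSCM, 1.76 to 1.78 in 2iLIF and 15.1 to 17.0 in ES, carried mostly by Thy1 in EPSCM and ES. The summed primitive endoderm list was 6.85 to 7.48 FPKM in EPSCM, 1.90 to 2.27 in 2iLIF and 4.46 to 5.10 in ES. The mesoderm list summed to 1.197 to 1.78 in EPSCM, 12.9 to 14.8 in 2iLIF and 1.199 to 1.496 in ES. The neural list summed to 17.7 to 20.2 in EPSCM, 19.3 to 22.8 in 2iLIF and 62.4 to 69.9 in ES, and the trophoblast list to 40.3 to 46.5 in EPSCM, 26.8 to 29.9 in 2iLIF and 18.6 to 21.1 in ES. Single genes carried most of these sums: Tubb3 the neural, Tfap2c the trophoblast, T the mesoderm sum in 2iLIF and Sox7 the primitive endoderm sum in ES. Other markers did not all follow. Cdx2 averaged 0.0411 FPKM in EPSCM, 2.85 in 2iLIF and 0.109 in ES, and Sox7 0.0315 in EPSCM and 2.79 in ES. The sums are therefore no measure of whole lineages. The part of such cells in the results was not tested. EPSCM replicate 2, 2iLIF replicate 1 and ES replicate 1, the libraries numbered 19, 18 and 16, stood apart from the rest on the third principal component, which held 6.46% of the variance.

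The stretches upstream of Fos, Jun, Junb and Maff are shown. These genes gave some of the main changes or carry the family's own type of recognition sequence close to the start. The stretches come from RefSeq (GRCm38.p6), cover the 250 bases before the annotated start and are written 5′ to 3′ on the strand of the gene. Capitals mark matches to TGACG, to TGACNTCA and to TATAAA. The windows are chr12:85473640-85473889 (plus strand), chr4:95052223-95052472 (minus strand), chr8:84978749-84978998 (minus strand) and, for the second of 3 annotated Maff starts, chr15:79347270-79347519 (plus strand). The build differs from that of the expression table, so these positions were not used with it.
Fos: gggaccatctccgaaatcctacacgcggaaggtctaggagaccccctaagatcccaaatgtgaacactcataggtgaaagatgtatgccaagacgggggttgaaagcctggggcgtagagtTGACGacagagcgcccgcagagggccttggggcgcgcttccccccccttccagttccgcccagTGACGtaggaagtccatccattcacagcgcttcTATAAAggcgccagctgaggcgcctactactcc
Jun: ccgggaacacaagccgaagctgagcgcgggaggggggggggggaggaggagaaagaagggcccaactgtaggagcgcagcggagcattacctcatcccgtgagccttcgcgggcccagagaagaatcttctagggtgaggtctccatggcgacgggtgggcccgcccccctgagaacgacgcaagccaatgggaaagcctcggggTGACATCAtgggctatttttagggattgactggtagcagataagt
Junb: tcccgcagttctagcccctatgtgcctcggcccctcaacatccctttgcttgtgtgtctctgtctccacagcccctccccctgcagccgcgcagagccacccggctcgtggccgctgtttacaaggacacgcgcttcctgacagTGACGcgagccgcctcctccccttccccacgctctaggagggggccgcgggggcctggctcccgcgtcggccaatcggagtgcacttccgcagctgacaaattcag
Maff: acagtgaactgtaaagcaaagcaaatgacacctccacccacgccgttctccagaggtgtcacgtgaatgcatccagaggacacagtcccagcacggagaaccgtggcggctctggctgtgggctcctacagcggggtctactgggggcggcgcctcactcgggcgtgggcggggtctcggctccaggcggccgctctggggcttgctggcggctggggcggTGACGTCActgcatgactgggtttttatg
The motif TGACNTCA covers the cyclic AMP response element TGACGTCA, which CREB and ATF2-JUN dimers bind, and the variant TGACATCA, known from the Jun promoter as a site through which JUN and ATF2 act on Jun itself. TGACG is the core that CREB contacts and lies inside the full element. Fos held TGACG at 129 and at 66 bases before the start and TATAAA at 33 bases. Jun held TGACATCA at 45 bases, Junb held TGACG at 106 bases, and Maff held TGACGTCA at 29 bases. Across all 32851 promoter windows of this length, searched on both strands, TGACNTCA was present in 7.49%, TGACG in 17.8%, TATAAA in 12.4%, the AP-1 motif TGANTCA in 6.75% and the CArG box bound by SRF in 1.47%. The last pair had no match in the 4 windows shown, and bases farther upstream were not searched. Among the windows not shown, Fosb held TGACG at 60 bases and the third Maff start held TGACATCA at 45 bases. Those of Fosl2, Jund, Ier3 and the first Maff start had no match to TGACG, TGACNTCA or TATAAA. For Fosl2 and Jund the RefSeq start used lay 671 and 1210 bases from the nearest protein-coding start in GENCODE. The 250 bases before those GENCODE starts were therefore not searched. The windows shown were picked partly for such motifs, so the shares across all windows are no test of them. Fosl1 and Ier2 had no entry in the promoter table.

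Fos encodes the founding FOS protein and is the classic serum-induced early gene. Its level was 8.54, 10.1 and 8.88 FPKM in EPSCM libraries, 8.43, 6.75 and 6.88 in 2iLIF libraries and 2.17, 1.87 and 1.55 in ES libraries. The ES libraries, the ones grown with serum, were the lowest and overlapped with neither of the other media. The mean was 9.18 ± 0.829 FPKM in EPSCM, 7.35 ± 0.939 in 2iLIF and 1.86 ± 0.309 in ES. Fos rose in EPSCM against ES by 1.83 ± 0.11 (adjusted p = 6.88e-07), a ratio of 4.93, and in 2iLIF against ES by 1.55 ± 0.11 (adjusted p = 2.54e-06), a ratio of 3.95. EPSCM and 2iLIF were close: the difference was 0.29 ± 0.11 (adjusted p = 0.0419), and the adjusted p ranged from 4.54e-04 to 0.166 over the other settings and was not under 0.05 in 10 of them, among them without ES replicate 2 (0.0588), 2iLIF replicate 2 (0.133), 2iLIF replicate 3 (0.125), EPSCM replicate 3 (0.0701) or EPSCM replicate 2 (0.124). In bulk RNA, fewer cells that express a gene and less RNA per cell cannot be told apart.

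Fosl2 encodes FRA2, a FOS protein without the strong activation domain of FOS. It ran the other way, with 0.358, 0.538 and 0.479 FPKM in EPSCM, 0.214, 0.182 and 0.131 in 2iLIF and 1.11, 1.33 and 1.26 in ES. No libraries of different media overlapped. Fosl2 passed the filter only through the ES libraries, so it had to be higher there to be tested. Its adjusted p-values and calls against ES therefore support nothing. The differences were -0.62 ± 0.06 for EPSCM against ES (adjusted p = 2.56e-05), 0.31 ± 0.06 for EPSCM against 2iLIF (adjusted p = 0.00231) and -0.93 ± 0.06 for 2iLIF against ES (adjusted p = 2.38e-06), all short of the fold limit on this scale. After quantile normalization the difference between EPSCM and 2iLIF was 0.042 (adjusted p = 0.578). The ratios of mean FPKM were larger, at 0.371, 2.61 and 0.142, because the added 1 FPKM compresses values this low. With a pseudocount of 0.1 the same differences were -1.27, 1.02 and -2.28, and all 3 would be called.

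The remaining FOS genes were near the detection limit. The steps between low values of the table put 1 fragment in a transcript of 1 kb at roughly 0.0346 to 0.0466 FPKM, depending on the library. Fosb, induced in neurons and other stimulated cells, had 0.0489, 0.0634 and 0.0939 FPKM in EPSCM, 0.303, 0.264 and 0.341 in 2iLIF and 0.0787, 0.245 and 0.114 in ES, which corresponds to roughly 4.2 to 37.2 fragments in a library. The 2iLIF libraries were the highest and the EPSCM and ES libraries overlapped. Fosl1, which encodes FRA1 and is known as a target of sustained ERK signalling, had 0.307, 0.330 and 0.194 FPKM in ES, or roughly 8.5 to 16.5 fragments. In both other media it was effectively 0 in all but 1 library each, EPSCM replicate 3 at 0.0178 and 2iLIF replicate 1 at 0.0180 FPKM, which is about 1 fragment. Fosl1 overlaps Ccdc85b on the other strand, which had 4.15 to 7.53 FPKM, and no source says whether strand was used in counting.

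**Figure D1:**
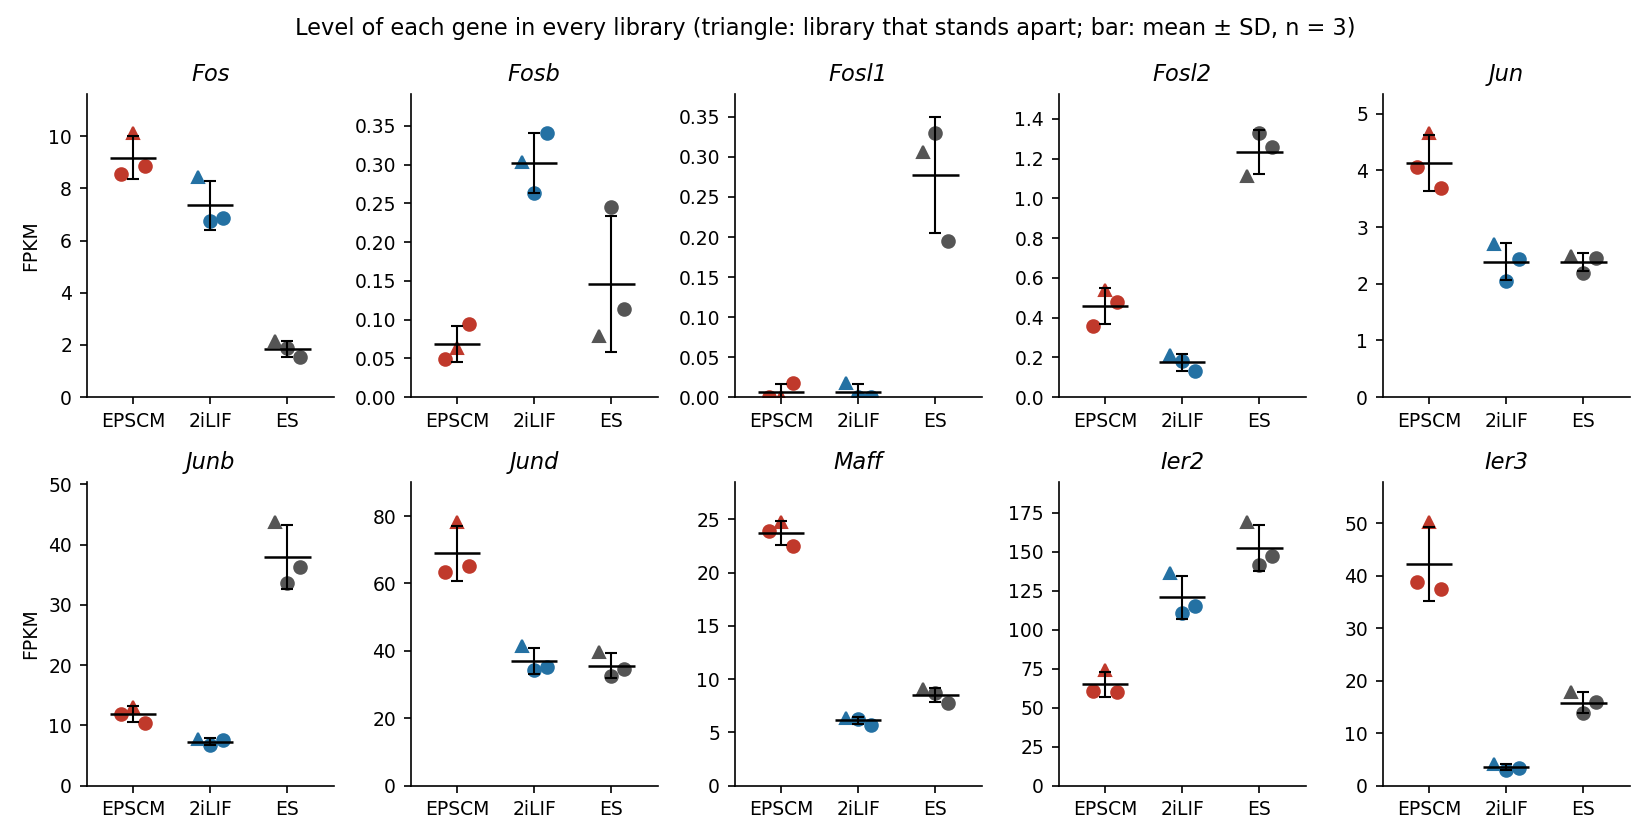
FPKM of each of the 10 genes (vertical axes, each from 0) in the 3 libraries of EPSCM, 2iLIF and ES, with mean and SD and with triangles for the libraries that stand apart. Fos, Jun, Jund, Maff and Ier3 are highest in EPSCM, Junb, Ier2, Fosl1 and Fosl2 are highest in ES, and Fosb is highest in 2iLIF.

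Jun, the founding JUN gene, was called in none of the 3 comparisons. It had 4.06, 4.66 and 3.68 FPKM in EPSCM libraries, 2.71, 2.04 and 2.43 in 2iLIF libraries and 2.49, 2.20 and 2.45 in ES libraries. All EPSCM libraries lay above the others, and the 2iLIF libraries spanned those of ES. The difference was 0.60 ± 0.09 both against ES (adjusted p = 3.63e-04) and against 2iLIF (adjusted p = 4.34e-04), with ratios of 1.74 and 1.73, short of the fold limit. Between 2iLIF and ES it was 0.0027 ± 0.095, with a 95% interval from -0.21 to 0.22, and its sign changed with the scaling. Jun overlaps Junos on the other strand, a gene without values here, and the part of this overlap was not tested.

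Junb encodes a JUN protein that can restrain JUN and is a direct target of STAT3 downstream of LIF. Its level was 11.97, 13.1 and 10.47 FPKM in EPSCM, 7.67, 6.70 and 7.57 in 2iLIF and 43.8, 33.7 and 36.3 in ES. The ES libraries stood well above all others, and no media overlapped. Junb fell in EPSCM against ES, with a difference of -1.60 ± 0.11 (adjusted p = 1.73e-06) and a ratio of 0.312, and in 2iLIF against ES, at -2.22 ± 0.11 (adjusted p = 2.82e-07) and a ratio of 0.193. EPSCM was above 2iLIF by 0.62 ± 0.11 (adjusted p = 8.89e-04), short of the fold limit. Exons of Prdx2 on the other strand share 173 of 2301 exon bases of Junb in GENCODE, and Prdx2 averaged 327 FPKM in EPSCM, 226 in 2iLIF and 219.5 in ES, so the Junb values are uncertain if strand was not used. The difference of Prdx2 was 0.57 ± 0.13 in EPSCM against ES, where Junb fell, 0.53 ± 0.13 in EPSCM against 2iLIF, where Junb was at 0.62, and 0.04 ± 0.13 in 2iLIF against ES, and its part in the Junb values was not tested.

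Jund, the JUN gene that most cells express steadily, reached 63.4, 78.4 and 65.3 FPKM in EPSCM, against 41.5, 34.2 and 35.2 in 2iLIF and 39.7, 32.6 and 34.6 in ES. Every EPSCM library exceeded every other library, while 2iLIF and ES overlapped. The difference of EPSCM was 0.93 ± 0.11 against ES (adjusted p = 5.48e-05) and 0.88 ± 0.11 against 2iLIF (adjusted p = 9.39e-05), ratios of 1.94 and 1.87, just under the fold limit. It passed the limit against ES after quantile normalization (1.02) and without ES replicate 1 (1.01). Between 2iLIF and ES it was 0.05 ± 0.11, with an interval from -0.20 to 0.30. Jund overlaps Gm11175 on the other strand, also without values here, and the part of this overlap was not tested.

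The make-up of both families differed between media. Fos held 94.5 ± 0.859% of the summed FOS family FPKM in EPSCM and 93.8 ± 0.231% in 2iLIF, but 52.8 ± 5.51% in ES, where Fosl2 held 35.3 ± 5.05% and Fosl1 7.78 ± 1.35%. Jund held 81.2 ± 1.22% of the JUN family in EPSCM and 79.2 ± 1.12% in 2iLIF, but 47.0 ± 0.745% in ES, where Junb held 49.9 ± 0.941%. Junb held 14.0 ± 0.992% in EPSCM and 15.7 ± 0.973% in 2iLIF. These shares follow from the levels given for each gene and are no separate evidence.

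Summed over its 4 genes, the FOS family reached 8.95, 10.7 and 9.47 FPKM in EPSCM libraries, 8.97, 7.19 and 7.35 in 2iLIF libraries and 3.66, 3.77 and 3.12 in ES libraries. EPSCM and 2iLIF each lay above ES without overlap (exact two-sided permutation p = 0.1 for each, the smallest that 3 against 3 libraries allow), and EPSCM and 2iLIF overlapped (exact p = 0.2). For the JUN family the sums were 79.4, 96.1 and 79.4 FPKM in EPSCM, 51.8, 43.0 and 45.2 in 2iLIF and 86.0, 68.5 and 73.3 in ES. The 2iLIF libraries lay below both other media (exact p = 0.1 for each). EPSCM and ES overlapped, with a difference in means of 9.02 FPKM (exact p = 0.4) that ranged from 3.46 without EPSCM replicate 2 and 5.30 without ES replicate 2 to 14.0 without ES replicate 1. The JUN family was far more abundant than the FOS family in all 3 media.

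**Figure D2:**
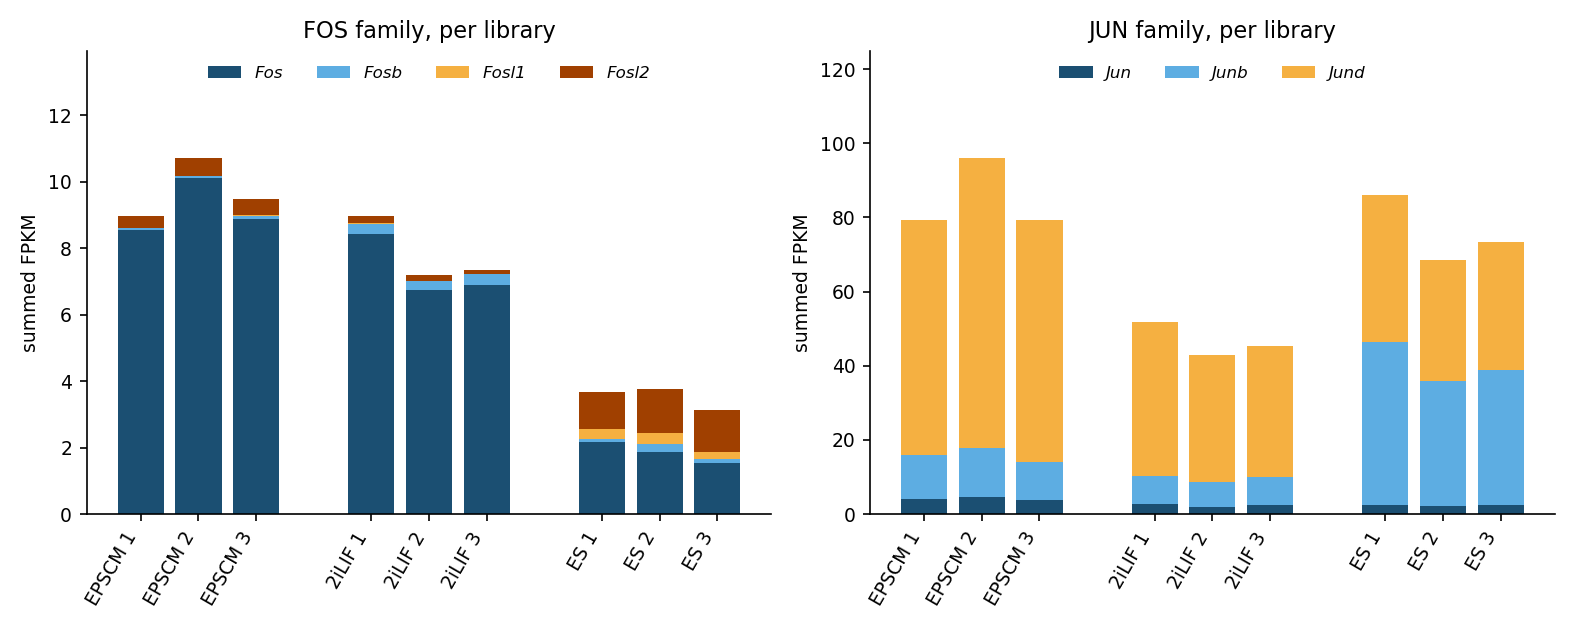
Summed FPKM of the FOS family (left) and the JUN family (right) in each library, stacked by gene, with axes from 0. Fos makes up most of the FOS bar in EPSCM and 2iLIF and about the same part as the other FOS genes together in ES, and the Junb segment is large only in the 3 ES bars.

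MAFF is a small MAF protein, a basic leucine zipper factor without an activation domain that pairs with CNC factors such as NRF2 and BACH1 and is itself inducible by stress. Its gene had 23.9, 24.8 and 22.5 FPKM in EPSCM, 6.36, 6.29 and 5.70 in 2iLIF and 9.07, 8.70 and 7.73 in ES. EPSCM libraries were far above the rest, and 2iLIF and ES did not overlap either. Maff rose in EPSCM by 1.38 ± 0.07 against ES (adjusted p = 3.47e-07), a ratio of 2.79, and by 1.80 ± 0.07 against 2iLIF (adjusted p = 8.37e-08), a ratio of 3.88. For 2iLIF against ES it was at -0.42 ± 0.07 (adjusted p = 8.95e-04), short of the fold limit.

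Ier3, also known as IEX-1, is a short stress-inducible gene tied to survival signalling and regulated in other cells by NF-kappaB, p53 and ERK. It stood at 38.8, 50.3 and 37.5 FPKM in EPSCM, 4.16, 3.02 and 3.36 in 2iLIF and 17.9, 13.8 and 15.9 in ES. The media were separated at every step, with EPSCM at the top and 2iLIF at the bottom. Against 2iLIF, EPSCM was higher by 3.26 ± 0.14 (adjusted p = 1.13e-07), a ratio of 12.03 and the largest difference of any tested member in the 3 comparisons. Against ES the rise was 1.36 ± 0.14 (adjusted p = 2.36e-05), a ratio of 2.67. In 2iLIF against ES it fell, with a difference of -1.90 ± 0.14 (adjusted p = 3.40e-06), a ratio of 0.222.

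Ier2, an early response gene for a nuclear protein of the IER family, was the most abundant member in 2iLIF and ES. Its level was 60.6, 74.2 and 60.4 FPKM in EPSCM, 136.7, 110.8 and 115.2 in 2iLIF and 169, 141 and 147 in ES. EPSCM lay lowest, with no overlap with the other media. Ier2 fell in EPSCM against ES, with a difference of -1.22 ± 0.11 (adjusted p = 1.10e-05), a ratio of 0.426. Against 2iLIF the difference was -0.88 ± 0.11 (adjusted p = 1.08e-04), a ratio of 0.538 and short of the fold limit. For 2iLIF against ES it was -0.33 ± 0.11 (adjusted p = 0.0266), and this adjusted p was not under 0.05 in 5 of the other settings. Against ES, Ier2 fell in EPSCM while Ier3 and Maff rose, and all 3 are inducible early genes.

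Within a medium the order of levels also differed. In EPSCM, Jund at 69.0 ± 8.16 FPKM and Ier2 at 65.1 ± 7.89 led with overlapping libraries, followed by Ier3, Maff, Junb, Fos and Jun, each separated from the next. In 2iLIF the order was Ier2 at 120.9 ± 13.9, Jund at 37.0 ± 3.92, then Fos at 7.35 ± 0.939 and Junb at 7.31 ± 0.533, which overlapped, and then Maff, Ier3 and Jun. In ES it was Ier2 at 152.6 ± 14.9, then Junb at 37.9 ± 5.25 and Jund at 35.6 ± 3.65, which overlapped, then Ier3, Maff, Jun and Fos. Fosl2, Fosb and Fosl1 filled the last places in every medium.

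Set beside all tested genes, the counts were as follows. In EPSCM against ES, 5 of 8 tested members were called, where 19.7% of all tested genes were: 3 higher (Fos, Maff, Ier3), where 11.7% of all tested genes were, and 2 lower (Junb, Ier2), where 7.97% were. All 8 had an adjusted p under 0.05, as did 73.1% of all genes, and 8 had no overlap between the libraries, as did 74.1%. Fosl2 is among these 8 and had to be higher in ES to be tested, so its place in both counts supports nothing. Of all genes called there, 59.4% were higher (1440, with 983 lower), and 49.5% after quantile normalization (1141 higher and 1162 lower). In EPSCM against 2iLIF, 2 of 8 members were called, against 16.1% of all genes. They were 2 higher (Maff, Ier3), against 10.1% of all genes, and 0 lower by limma, against 5.91%. At an unadjusted p under 0.05, 1 was lower. This was Ier2, which also had an adjusted p under 0.05 (1.08e-04) and was short of the fold limit. An adjusted p under 0.05 held for 8 members and 68.0% of genes, and no overlap for 8 members and 71.1% of genes. The split of called genes there was 63.2% higher, and 52.8% after quantile normalization.

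In 2iLIF against ES, 3 of 8 members were called, against 14.7% of all genes: 1 higher (Fos), against 7.62% of all genes, and 2 lower (Junb, Ier3), against 7.12%. Here 6 members had an adjusted p under 0.05, against 67.0% of genes, and 6 had no overlap, against 70.6%. Fosl2 is again among them, with the same limit. With most genes of the table passing on the adjusted p alone, the shares of members that passed it are near the background. All 8 tested members differed among the 3 media by limma's moderated F statistic, with adjusted p-values from 1.03e-07 for Maff to 3.51e-04 for Jun. The share of all tested genes passing this F test is not reported here. Single comparisons passed on the adjusted p for 67.0% to 73.1% of them, so the count of 8 does not set the members apart. Fosl2 had to be higher in ES to be tested, so it adds nothing to that count. The comparisons share libraries, so their values are set side by side and are not independent of each other.

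**Figure D3:**
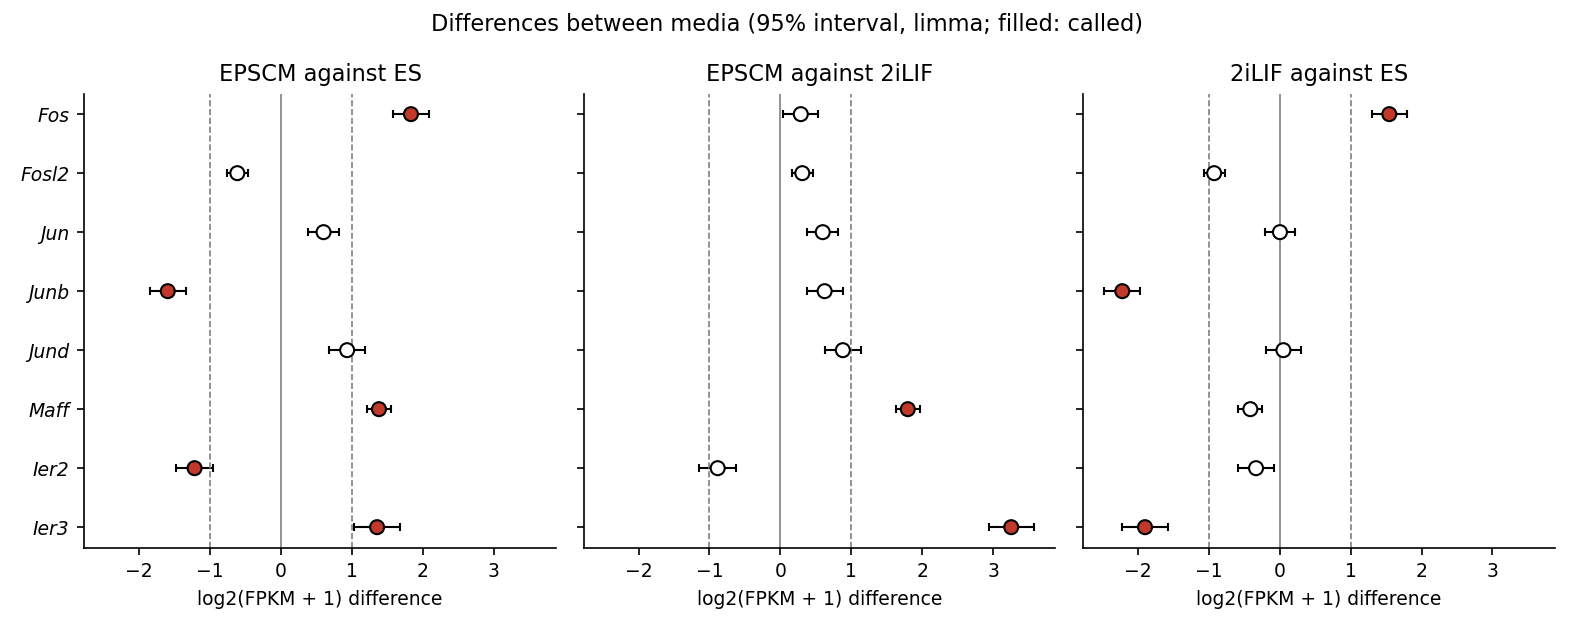
Difference in log2(FPKM + 1) with its 95% interval for the 8 tested genes (rows) in the 3 comparisons (panels), with dashed lines at the fold limit of 1 and filled points for called genes. Ier3 lies farthest to the right in EPSCM against 2iLIF at 3.26, and Junb farthest to the left in 2iLIF against ES at -2.22.

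The library that stands apart in each medium was also the highest for most members. Fos, Jun, Junb, Jund, Maff, Ier2 and Ier3 were highest in that library in all 3 media, 7 of 8 tested members, where 38.4% of all tested genes were. The median excess over the other libraries of the medium was 0.21, 0.22 and 0.23 on the log2 scale for the tested members in EPSCM, 2iLIF and ES, against 0.05 for all genes in each. The largest excess was that of Ier3 in EPSCM, at 0.39. These libraries were chosen as the ones farthest from their medium's median on the third principal component, so every medium has 1 by rule. Without these libraries the numbers of members called stayed at 5, 2 and 3. Their part in the spread of the members was not tested further.

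**Figure D4:**
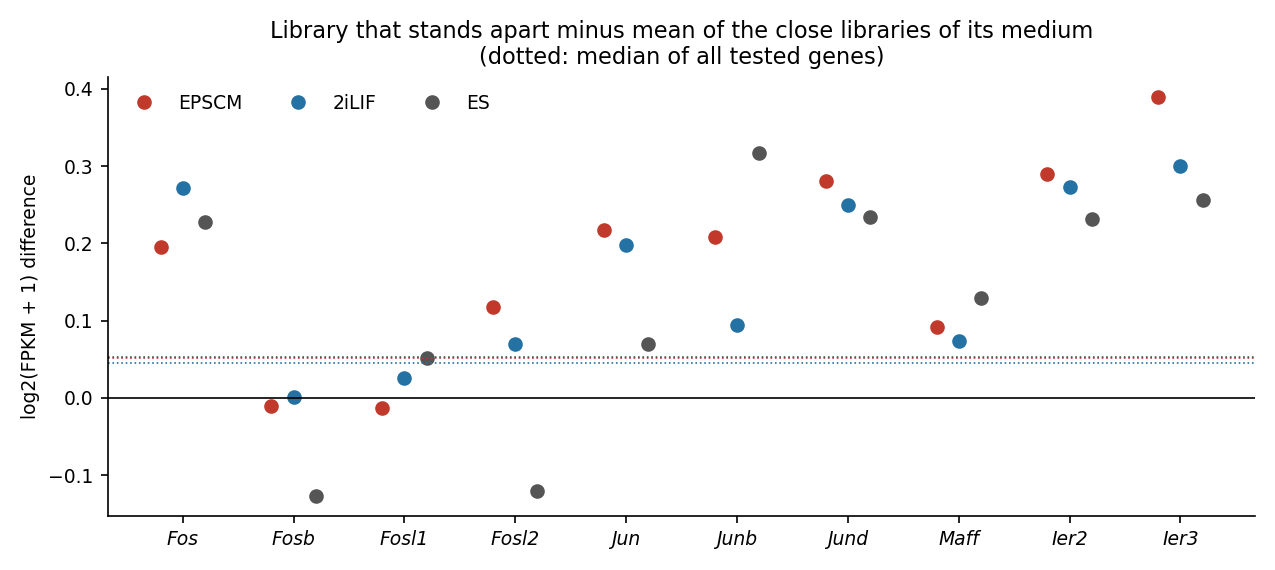
Level in the library that stands apart minus the mean of the other libraries of its medium, as a difference in log2(FPKM + 1), for each gene (horizontal axis) and medium (colours); dotted lines give the median of all tested genes. Most points lie above the dotted lines, and the top point is Ier3 in EPSCM at 0.39.

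Some members differ from most tested genes in gene structure. Jun, Junb, Jund and Ier2 have a single exon in GENCODE, 4 of 10 members, against 2.33% of tested genes with an annotation. Jun, Junb and Jund are of the same family, and the other members have 2 to 4 exons. The median transcript length was 1911 bases for the members and 3005 for tested genes, and the median GC content 56.8% and 50.9%. Fosl2, at 6537 bases, Fosb and Jun were longer than the median of tested genes. Jund had the highest GC content, 67.1%, and Ier3 the shortest transcript, 1131 bases. Junb, Jund and Ier2 all lie on chromosome 8, Fos on 12, Fosb on 7, Fosl1 on 19, Fosl2 on 5, Jun on 4, Maff on 15 and Ier3 on 17.

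Other bZIP factors related to AP-1 were called in both directions in EPSCM against 2iLIF and only higher in the other comparisons. At an unadjusted limma p under 0.05, 1 was lower in EPSCM against ES and 3 were lower in 2iLIF against ES. The first was Bach2, with an adjusted p of 4.16e-05. The others were Batf3, Mafa and Mafk, with adjusted p of 2.44e-05, 0.00124 and 0.0627. All were short of the fold limit. An adjusted p under 0.05 in either direction held for 73.1% and 67.0% of all tested genes in these comparisons. In EPSCM against ES, 3 of 14 tested were called higher and 0 lower, with a median of 0.56 against 0.09 over all genes. They were Mafa, a large MAF factor, at 12.5 ± 0.746 FPKM in EPSCM against 3.77 ± 0.542 in ES, Bach1, a repressor that pairs with small MAF proteins, at 18.6 ± 1.56 in EPSCM against 7.20 ± 0.370 in ES, and Atf7, a relative of ATF2, at 9.06 ± 0.828 in EPSCM against 3.94 ± 0.463 in ES. In EPSCM against 2iLIF, 3 were higher and 2 lower, with a median of -0.09 against 0.03. Bach2 had 0.155 ± 0.0198 FPKM in EPSCM, against 4.96 ± 0.153 in 2iLIF, and Nfe2, the CNC factor of blood cells, had 0.602 ± 0.0604 in EPSCM against 4.94 ± 0.474 in 2iLIF. Both passed the filter only through the 2iLIF libraries, and Nfe2l3 only through those of EPSCM, so these 3 had to be higher there to be tested, and the counts that include them support nothing. Against ES, 2iLIF had 4 higher and 0 lower, with a median of 0.51 against 0.03, namely Bach2, Nfe2, Atf7 and Bach1. The share of the list called was 21.4% in EPSCM against ES, 35.7% in EPSCM against 2iLIF and 28.6% in 2iLIF against ES, beside 19.7%, 16.1% and 14.7% of all tested genes.

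Other immediate early genes split in both directions. In EPSCM against ES, 8 of 31 tested were higher and 5 lower, with a median of 0.30 against 0.09 for all genes. Myc fell to 0.343 ± 0.0855 FPKM in EPSCM, against 37.3 ± 2.26 in ES, and Dusp6, an ERK phosphatase, to 3.31 ± 0.482 in EPSCM against 37.8 ± 3.89 in ES. Gadd45b and Gadd45g, stress genes that feed into p38 and JNK signalling, also changed. Gadd45b rose to 83.4 ± 4.25 FPKM in EPSCM, against 11.7 ± 1.12 in ES, and Gadd45g to 9.935 ± 1.14 in EPSCM, against 0.835 ± 0.125 in ES. Gadd45g passed the filter only through the EPSCM libraries, so it had to be higher there to be tested. Its calls against ES and against 2iLIF, and its place in the counts and shares, support nothing. In EPSCM against 2iLIF, 3 were higher and 3 lower, with a median of 0.17 against 0.03: Gadd45g and Gadd45b were higher by 2.67 ± 0.08 and 2.00 ± 0.07, and Zfp36l1, which promotes mRNA decay, was lower at -1.25 ± 0.06. For 2iLIF against ES, 4 were higher and 3 lower, with a median of -0.06 against 0.03. Ctgf and Klf6 were at 1.89 ± 0.06 and 1.31 ± 0.08, and Dusp6 and Myc at -2.86 ± 0.10 and -2.81 ± 0.07. Like Fos, Ctgf and Klf6 were lowest in ES, at 5.18 ± 0.424 and 4.77 ± 0.642 FPKM. Of the list, 41.9% was called in EPSCM against ES, 19.4% in EPSCM against 2iLIF and 22.6% in 2iLIF against ES, beside the same 19.7%, 16.1% and 14.7% of all tested genes.

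Components of the JNK and p38 cascades came next. In EPSCM against ES, 5 of 23 tested were higher and 1 lower, with a median of 0.42 against 0.09 for all genes, and against 2iLIF 7 were higher and 1 lower, with a median of 0.60 against 0.03. Mapk8ip3, a JNK scaffold, was at 25.2 ± 2.32 FPKM in EPSCM against 5.88 ± 0.395 in ES, and Map2k6, a kinase that activates p38, at 29.3 ± 0.979 in EPSCM against 7.71 ± 0.386 in ES. Mapkapk3, a kinase downstream of p38, was lower, at 15.2 ± 0.913 in EPSCM against 37.65 ± 2.74 in ES. The p38 genes Mapk13, Mapk12 and Mapk11 were higher in EPSCM than in 2iLIF by 2.17 ± 0.10, 1.86 ± 0.09 and 1.29 ± 0.07, while Dusp10, a phosphatase of p38 and JNK, was at -1.46 ± 0.09. Between 2iLIF and ES, 1 was higher (Dusp10) and 4 lower, with a median of 0.14 against 0.03, and Mapkapk3 and Mapk11 were at -1.86 ± 0.08 and -1.63 ± 0.07. The share called was 26.1% in EPSCM against ES, 34.8% in EPSCM against 2iLIF and 21.7% in 2iLIF against ES, beside 19.7%, 16.1% and 14.7% of all tested genes.

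Few upstream genes of the ERK cascade or factors that bind the Fos and Jun promoters were called. Of 17 tested ERK pathway genes, 2 were higher and 0 lower in EPSCM against ES, with a median of 0.26 against 0.09: the scaffold Ksr1, at 1.54 ± 0.07, and the exchange factor Sos1, at 1.00 ± 0.11. That is 11.8% of the list, beside 19.7% of all tested genes. By limma 0 genes of that list were called in the other comparisons (8 in EPSCM against 2iLIF and 7 in 2iLIF against ES had an unadjusted p under 0.05), with medians of 0.26 in EPSCM against 2iLIF and 0.08 in 2iLIF against ES, beside 0.03 over all genes in each. Except Map2k1 in 2iLIF against ES (0.0630), these genes also had an adjusted p under 0.05 and were short of the fold limit. So low an adjusted p held for 68.0% and 67.0% of all tested genes. Of 14 tested promoter-binding factors, Mef2d was the only one called, higher in EPSCM by 1.17 ± 0.07 against ES and 1.09 ± 0.07 against 2iLIF, with list medians of 0.13 and -0.03. That is 7.14% of the list in each, beside 19.7% and 16.1% of all tested genes. Between 2iLIF and ES 0 were called by limma, with a median of 0.09, and 10 had an unadjusted p under 0.05. All of these also had an adjusted p under 0.05, as did 67.0% of all tested genes, and were short of the fold limit.

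Genes known from other cells as AP-1 targets were called in both directions in each comparison, though Plau alone was called higher in EPSCM against 2iLIF. In EPSCM against ES, 3 of 20 tested were higher and 1 lower, with a median of 0.04 against 0.09: Hmga2 and Plau were among those higher, at 1.18 ± 0.09 and 1.08 ± 0.07, and cyclin D1 (Ccnd1) fell to 19.5 ± 0.650 FPKM in EPSCM, against 65.3 ± 3.38 in ES. Plau passed the filter only through the EPSCM libraries, so it had to be higher there to be tested. Its calls in EPSCM against ES and against 2iLIF, and the counts and shares that include them, support nothing. In EPSCM against 2iLIF, 1 was higher and 6 lower, with a median of 0.0017 against 0.03, led by Krt8 at -2.77 ± 0.10 and the metallothionein Mt2 at -2.41 ± 0.10. Of the same list, 6 genes of 2iLIF against ES were higher and 2 lower, with a median of 0.28 against 0.03, led by Krt8 at 2.62 ± 0.10 and Mt1 at 2.01 ± 0.11. The share of the list called was 20.0% in EPSCM against ES, near the 19.7% of all tested genes, 35% in EPSCM against 2iLIF, beside 16.1%, and 40.0% in 2iLIF against ES, beside 14.7%.

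**Figure D5:**
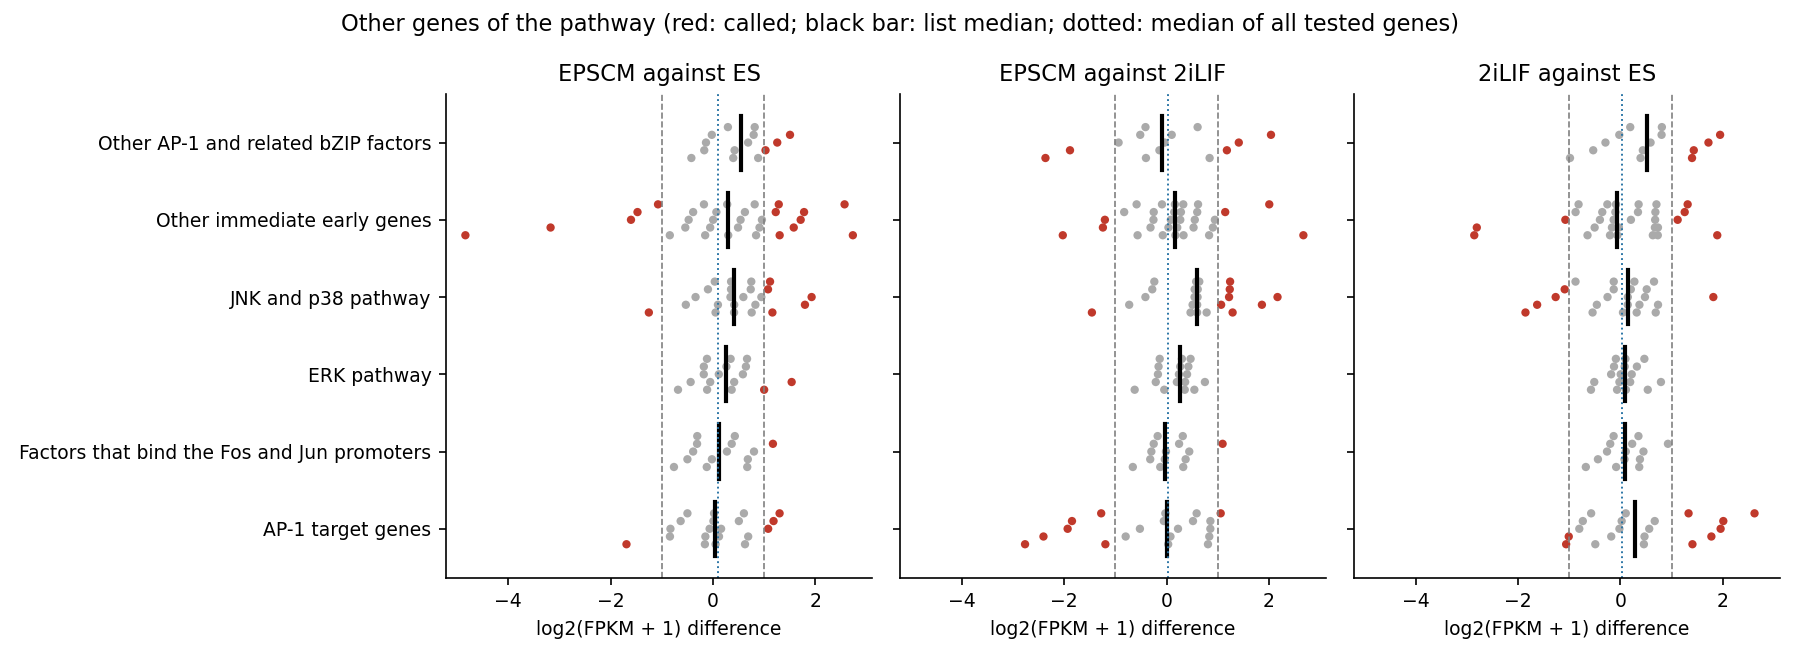
Difference in log2(FPKM + 1) of each tested gene in 6 lists of related genes (rows) for the 3 comparisons (panels), with red for called genes, a black bar for the list median and a dotted line for the median of all tested genes. The JNK and p38 list has its median right of the dotted line in both EPSCM panels, at 0.42 and 0.60.

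The genes closest in pattern to Fos, Jun and Junb were sought over the 9 libraries by the root mean square distance between centred log2(FPKM + 1) profiles. For Fos they included Cpe at a distance of 0.069 and Stmn2 at 0.081. Cpe averaged 23.8 ± 1.86 FPKM in EPSCM, 18.8 ± 0.805 in 2iLIF and 5.70 ± 0.445 in ES. For Jun they were Klhl26 at 0.057, Camta2 at 0.058 and Chmp2a at 0.059. For Junb they were Rarg at 0.086, Pea15a at 0.11 and Itgb7 at 0.11, and Rarg averaged 23.9 ± 1.73 FPKM in EPSCM, 15.3 ± 1.13 in 2iLIF and 68.7 ± 5.46 in ES.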

How the data were processed

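The assay was RNA sequencing of 9 libraries, 3 per medium, made with a stranded messenger RNA kit, per the labels' protocols. The deposited FPKM, 1 value per gene symbol and library, were made with STAR and Cuffnorm on mm9, per the submitters' processing notes. Tool versions, gene annotation and strand setting were not stated there. The table has no counts, so depth is known only through the steps between low values, and low genes are the least precise.

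Values as log2(FPKM + 1) were fitted with limma 3.58.1 (R 4.3.3), with medium as the only term, all 9 libraries and a trended prior variance. P-values were adjusted over 12330 genes after Benjamini and Hochberg, and the fit was tested on simulated data. Family sums were compared by exact permutation tests. No 2 libraries held identical values, and all were counted separately. Promoters came from RefSeq (8 of 10 members matched) and transcript features from GENCODE (11864 of 12330 tested genes matched), both on GRCm38 and by symbol. The text names all members, the closest profiles to Fos, Jun and Junb, and from each other list up to 4 called genes per comparison, taken by size of difference among those reaching a mean of 1 FPKM. Some genes that this rule takes are not reported here. Members, lists, tests and alternatives were chosen with earlier results of these data known.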

Additional observations from a re-analysis of the deposited data

How the results depend on the processing

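Over 22 other settings, 506 of 522 values of the 24 member differences kept their direction and whether they were called, 10 changed sign and 6 passed the fold limit where they had not. Among the 506, differences short of the fold limit lost an adjusted p under 0.05 in 10 settings for Fos and 1 for Fosl2 (EPSCM against 2iLIF) and in 5 for Ier2 (2iLIF against ES). The sign changes were all in 2iLIF against ES: Jun was at -0.037 after quantile normalization, -0.041 with libraries at the same median ratio, -0.039 with array weights, -0.040 with the close libraries only (chosen after seeing the data, as were a term for the libraries standing apart and the averaging of close libraries) and -0.063 to 0.079 with 1 library left out, and Jund was at -0.0093 with the same median ratio and -0.031 to 0.13 with 1 library left out. The cause was not tested. Fosl2 passed with a pseudocount of 0.1 in all 3 comparisons and with 0.5 in 2iLIF against ES (-1.36), and Jund as given in the report. The number of members called ranged from 5 to 6, 2 to 3 and 3 to 4 for EPSCM against ES, EPSCM against 2iLIF, then 2iLIF against ES. With a mean of at least 5 FPKM, 1532, 1025 and 1055 genes were called among the 8478 tested, against 2423, 1979 and 1817, and a pseudocount of 0.1 gave 2738 in 2iLIF against ES. No paired analysis was possible because the library numbers in the titles differ between media. The term for the libraries standing apart, a set defined from the data, changed no member's call and gave smaller errors for most members (Ier2 in EPSCM against ES 0.025, against 0.113). Lone fragments decide Fosl1 outside ES, and Fosb rests on few.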
